A study of Homo sapiens with 12 samples.

Results

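The small nucleolar RNAs (snoRNAs) and small Cajal body RNAs (scaRNAs) of a Müller glia model of myotonic dystrophy type 1 were examined across every array of the series. The members were all probe sets whose only platform gene symbol started with SNORD (box C/D), SNORA (box H/ACA) or SCARNA, without the imprinted clusters SNORD113 to SNORD116. This rule took 483 of the 36176 probe sets with 1 gene symbol, namely 130 SNORD, 310 SNORA and 43 SCARNA probe sets of 184 symbols. Total RNA was measured on Clariom D Human arrays in 4 groups of 3 biological replicates. The groups were Dox-induced MIO-M1-CTG(648), non-induced MIO-M1-CTG(648), Dox-induced MIO-M1-CTG(0) and non-induced MIO-M1-CTG(0) cells. All of them derive from MIO-M1, an established human Müller glia line, through 1 selected clone that carries the Tet transactivator plasmid pCMV-Tet3G, and all were grown with G418 and puromycin. Each line holds a DMPK minigene of exons 11 to 15, with 648 or 0 CTG repeats, under a promoter that responds to doxycycline (Dox). Induced cells had 1 μg/ml Dox for 8 days and non-induced cells had none. Each repeat length is represented by a single line, so the repeat and any other difference between the 2 lines cannot be told apart when the lines are compared. The sources used here do not say whether the replicates were separate cultures, so a p-value reflects only how much these samples varied.

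Box C/D snoRNAs guide 2′-O-methylation and box H/ACA snoRNAs guide pseudouridylation of ribosomal RNA, each by base pairing with its target inside a small ribonucleoprotein. ScaRNAs direct the same modifications to spliceosomal snRNAs in Cajal bodies, and a few snoRNAs, among them U3, act in the cleavage of the ribosomal RNA precursor instead. Most vertebrate snoRNAs are cut out of the introns of host genes, many of which make ribosomal or nucleolar proteins or spliced noncoding RNAs, while U3, U13 and SCARNA2 are transcribed from promoters of their own.

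The symbol alone did not always name the snoRNA gene. Only 120 of the 483 probe sets (57 SNORD, 43 SNORA and 20 SCARNA) carried the identifier of a RefSeq snoRNA gene (GRCh38.p14), and they cover 118 genes. The other 363 probe sets (75.2%) had a symbol and no gene of their own. For 342 of them RefSeq holds a gene of that symbol. Of these, 311 lay on another chromosome than that gene, as copies of an snoRNA family do, or had no chromosome assigned. SNORA70 had the most probe sets, 29, followed by SNORA31 with 25, SNORA40 with 21 and SNORA25 with 19. The 118 RefSeq genes were 67 to 420 nucleotides long, with medians of 86 for SNORD, 134 for SNORA and 141 for SCARNA genes. Of these genes, 111 lay within the span of another gene (96 protein-coding, 14 long noncoding and 1 transcribed pseudogene). The 7 without such a host were the U3 genes SNORD3A, SNORD3B-2, SNORD3C and SNORD3D, the U13 gene SNORD13, SNORD32B and SCARNA2.

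The sequences of the snoRNAs themselves were not used here. The starts of host genes are shown instead, since many snoRNA hosts are known for a run of pyrimidines at the transcription start (the TOP motif of ribosomal protein genes) and the host genes of the snoRNAs that fell with Dox are described further on. Each line gives 15 bases before and 15 bases from the RefSeq start, on the transcribed strand (RefSeq, GRCh38.p14), and capitals mark a C followed by at least 5 C or T letters that begins within 5 bases of the start. The first 3 hosts have the run and NCL and HSPA8 have none by this definition. In URB1 the capitals begin before the start (offset -4) and are the later part of a longer run of C and T letters.
SNX5 (host of SNORD17, chr20:17968780-17968809, minus strand): gcaccgaaacgcggtCTTTCTCTagacgcg
RPL12 (host of SNORA65, chr9:127451392-127451421, minus strand): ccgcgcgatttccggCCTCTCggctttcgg
URB1 (host of SNORA80A, chr21:32392998-32393027, minus strand): cagccccgcctCTTCCTgcgccatgtgggc
NCL (host of SNORA75, chr2:231464470-231464499, minus strand): tcagtctttcgcctcagtctcgagctctcg
HSPA8 (host of SNORD14E, chr11:123062122-123062151, minus strand): cgggcggaaaccggtctcattgaactcgcc
The run was found at 11.12% of the 35116 gene starts searched, in 19 of the 76 member hosts with a start in the table (25%) and in 3 of the 12 hosts, with a start in the table, of the snoRNAs that were lower with Dox in CTG(648) cells. A host counted when at least 1 of its starts had the run, and some hosts have several starts. The host shares are therefore not counted like the share of single starts. A match describes letters at one annotated start and says nothing of how a host is regulated.

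Facts of the whole series bear on these values as follows. DMPK, the gene the minigene comes from, averaged 9.72 in Dox-induced and 10.19 in non-induced CTG(648) arrays (log2 signal), a difference of -0.47 that did not pass the threshold and ran against the label. In CTG(0) arrays it averaged 8.54 with Dox and 7.95 without, which passed (log2 fold change 0.59). Where the probes lie relative to the minigene's exons was not looked up, so the groups are named as labelled throughout, and every direction given for Dox in CTG(648) cells rests on labels that this probe set does not bear out. Of 13 Müller glia markers, 7 had a mean of at least 5 in some group, among them VIM, GLUL, SOX9 and CD44, while RLBP1, a defining marker, averaged 2.70 to 2.89 over the groups. None of the 4 photoreceptor and neuron markers measured reached 5. Of the others, 7 of 8 fibroblast and pericyte, 3 of 4 microglia and macrophage and 1 of 4 retinal pigment epithelium markers did. With Dox in CTG(648) cells 3 fibroblast and pericyte markers (COL1A1, PDGFRA and PDGFRB) were lower. The Müller markers SLC1A3 (0.71) and EGFR (0.55) were called higher there, but 8 of the 13 changed below 0 (median -0.12). At an unadjusted limma p under 0.05, 2 of the 13 were higher and 4 lower. SLC1A3 also had 0.55 with Dox in CTG(0) cells, which did not pass. Between the lines 5 fibroblast and pericyte markers were lower and 1 higher with Dox in CTG(648) than in CTG(0) cells, with LUM at -8.41 with Dox and -7.04 without. The part of these markers in the snoRNA results was not tested.

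Signals are deposited log2 values, and a snoRNA was called when its log2 fold change passed 0.5 in size with an unadjusted p under 0.005 in the limma fit. Adjusted p-values are limma p-values with Benjamini-Hochberg adjustment over the 36176 probe sets. Many members were dim: 229 of 483 reached a mean of 5 in at least 1 group, 103 of the 120 with their own RefSeq gene and 126 of the 363 with a symbol only. The median SD within groups was 0.33 for members and 0.25 for all probe sets tested. The level of one probe set cannot be set against that of another, so the comparisons below are within a probe set.

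Single arrays stood apart before any comparison. For the 120 probe sets with their own gene, the median deviation from each probe set's mean was -0.23, -0.32 and -0.30 in the Dox-induced CTG(648) arrays, against -0.03, 0.04 and 0.02 in the non-induced CTG(648) arrays. It was 0.11, 0.10 and 0.22 in the Dox-induced CTG(0) arrays, against -0.02, 0.06 and 0.31 in the non-induced CTG(0) arrays. All 3 Dox-induced CTG(648) arrays thus lay below all other arrays, and replicate 3 of the non-induced CTG(0) cells was the highest of all. Over 4292 probe sets of other short RNAs (RNU, RN7S, RNY, VTRNA and MIR symbols) the median was -0.10, -0.05 and -0.03 in the Dox-induced CTG(648) arrays, against 0.05, 0.00 and 0.02 in the non-induced ones. Other short RNA was therefore also lowest in that group, by a smaller amount. Replicate 1 of the non-induced CTG(648) cells read low for U3 and U13, as given below. Without these 2 arrays, a choice made after seeing the data, the members called were 29 in place of 23 for Dox in CTG(648) cells, 7 in place of 5 for Dox in CTG(0) cells, 57 in place of 52 between the lines with Dox and 21 in place of 27 without, and the own-gene snoRNAs lower were 16 in place of 14 for Dox in CTG(648) cells.

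**Figure D1:**
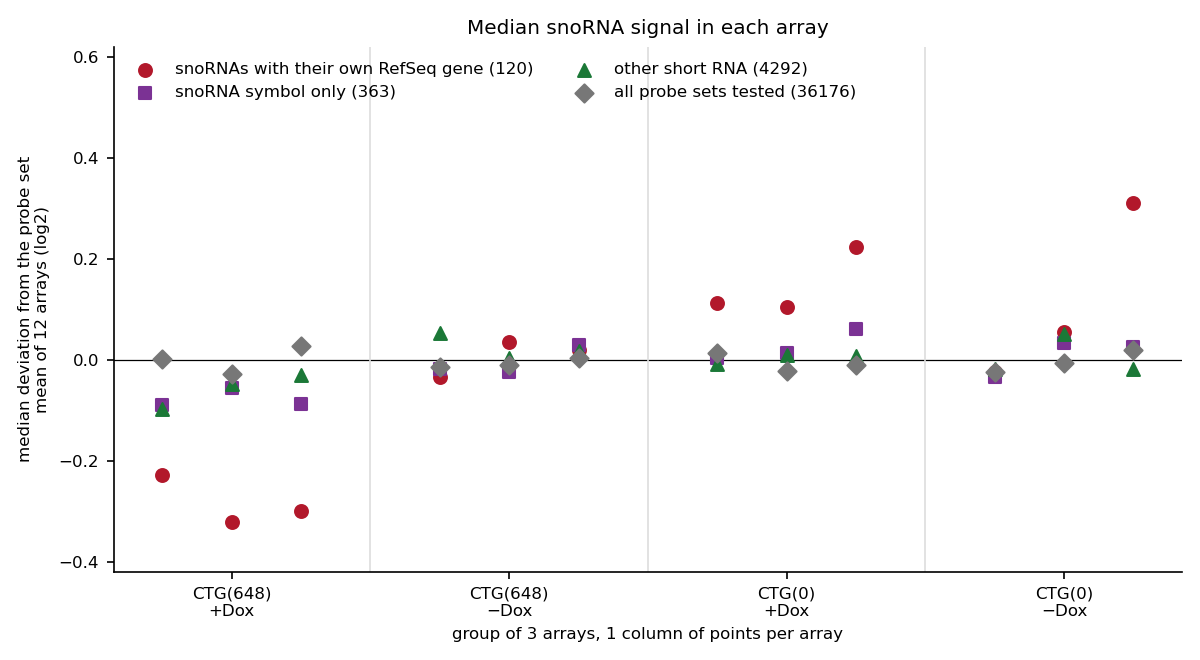
Median deviation of each array from the probe set means over 12 arrays (log2), for 4 sets of probe sets, with 3 arrays per group from Dox-induced CTG(648) at the left to non-induced CTG(0) at the right. The snoRNAs with their own RefSeq gene sit at -0.23 to -0.32 in the Dox-induced CTG(648) arrays and at or above -0.03 in the 9 others, while all probe sets tested stay near 0.

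With Dox, more snoRNAs were lower than higher in CTG(648) cells. Of the 483 members, 19 were lower and 4 higher, beside 2.42% of all probe sets called (1.28% higher and 1.14% lower). By class, 8 SNORD, 10 SNORA and 1 SCARNA probe sets were lower and 1, 2 and 1 were higher. The snoRNAs with their own gene went one way: 14 of 120 were lower (7 SNORD and 7 SNORA) and 0 higher, and 1 of the 120 was higher at an unadjusted p under 0.05. Their median log2 fold change was -0.25, with 81.7% below 0, against a median of 0.01 for all probe sets tested. The 363 with a symbol only had 5 lower and 4 higher and a median of -0.06. In 34 of the 120 own-gene snoRNAs every Dox-induced CTG(648) array lay below every non-induced one (7.92% of all probe sets did), and in 2 every array lay above (9.04%). Of own-gene snoRNAs averaging at least 5 in a group, 13.6% were called lower, beside 1.79% of all such probe sets. Their arrays lay below in 33.0% and above in 1.94%, beside 10.5% and 11.9%. In these bulk samples, fewer cells that express a snoRNA and less of it per cell cannot be told apart. At an adjusted p under 0.05, 4 members were called (3 higher and 1 lower), beside 0.65% of all probe sets.

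**Figure D2:**
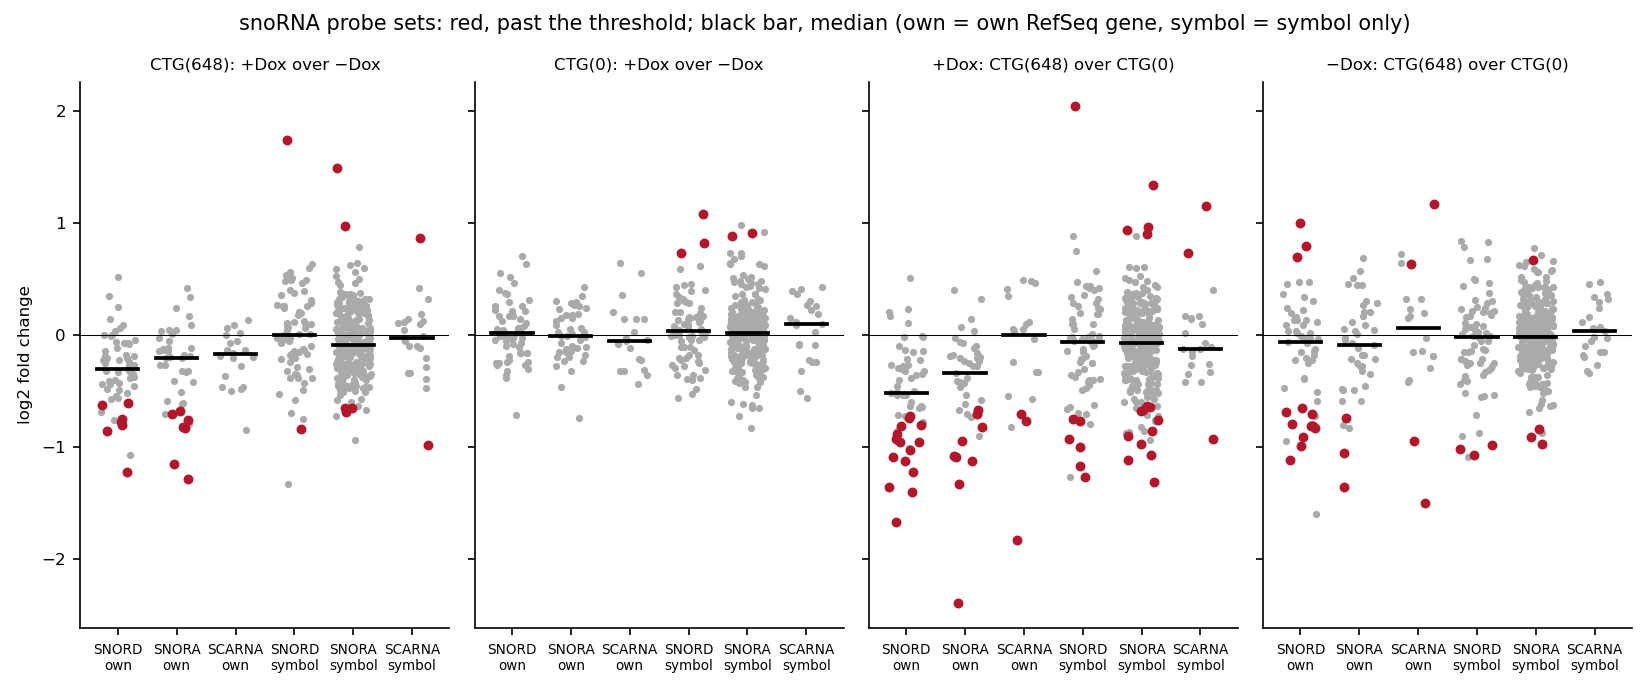
Log2 fold change of every member probe set in 4 comparisons, split by class and by whether the probe set has its own RefSeq gene, with called probe sets in red and medians as black bars. In Dox-induced over non-induced CTG(648) cells the called own-gene snoRNAs all lie below 0, down to -1.29, whereas Dox in CTG(0) cells gave no called own-gene snoRNA.

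SNORA47, a box H/ACA RNA within the span of ZBED3 (chr5:77080434-77080571, GRCh38.p14), had the lowest fold change of the members called. It read 10.73, 10.54 and 9.96 in Dox-induced CTG(648) arrays, against 11.57, 11.75 and 11.78 in non-induced CTG(648) arrays. The groups did not overlap, and the log2 fold change was -1.29 ± 0.28 (SE, n = 3 each, limma, adjusted p = 0.0653). SNORD17, a methylation guide in SNX5 (chr20:17962710-17962946), read 9.39, 9.40 and 9.88 with Dox, against 11.31, 10.14 and 10.91 without. Replicate 2 of the non-induced cells was the lowest of its group but still above all Dox-induced arrays, and the log2 fold change was -1.23 ± 0.27 (SE, limma, adjusted p = 0.0617). SNORA75 (U23), in the gene of the nucleolar protein nucleolin, NCL (chr2:231455800-231455936), read 6.49, 7.08 and 7.54 with Dox, against 7.80, 8.35 and 8.41 without. It fell by 1.15 on the log2 scale (SE 0.24, limma, adjusted p = 0.051), again with no overlap. SNORA65 (U65), a guide for pseudouridylation of the large-subunit rRNA in the ribosomal protein gene RPL12 (chr9:127448502-127448637), read 4.84, 5.27 and 4.96 with Dox, against 5.91, 5.81 and 5.64 without. Its groups were well apart for their spread, and it was the only own-gene snoRNA with an adjusted p under 0.05 (log2 fold change -0.76 ± 0.15, SE, limma, adjusted p = 0.0347).

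SNORD14E, a copy of U14, a snoRNA needed for processing of the small-subunit rRNA, lies in HSPA8, the gene of a constitutive heat shock protein. It read 7.04, 6.81 and 6.76 in Dox-induced CTG(648) arrays, against 7.50, 8.09 and 7.59 in non-induced ones, a log2 fold change of -0.86 ± 0.25 (SE, limma, adjusted p = 0.18). SNORD14A, a U14 copy in RPS13, read 9.15, 8.58 and 8.64 with Dox, against 8.28, 10.00 and 10.37 without, and with that spread did not pass. SNORD59B and SNORD59A, a pair of methylation guides for the small-subunit rRNA in ATP5F1B, the gene of an ATP synthase subunit, fell together. SNORD59B read 8.23, 8.14 and 8.05 with Dox, against 8.76, 8.78 and 9.14 without (log2 fold change -0.75 ± 0.17, SE, limma, adjusted p = 0.073). SNORD59A read 12.14, 12.42 and 12.04 with Dox, against 12.95, 12.63 and 12.85 without (log2 fold change -0.61 ± 0.17, SE, limma, adjusted p = 0.152). SNORD71, a methylation guide for 5.8S rRNA in AP1G1, read 11.78, 11.47 and 11.13 with Dox, against 11.94, 12.29 and 12.49 without, and fell by 0.78. For SNORD59B the 3 non-induced CTG(648) arrays lay above all 6 CTG(0) arrays, which ranged from 7.65 to 8.16. For SNORD71 they overlapped the Dox-induced CTG(0) arrays, at 12.14, 11.58 and 12.17.

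The rest of the 14 own-gene snoRNAs that fell were SNORA80E in KHDC4 (-0.84), SNORA38B in NOL11 (-0.83), SNORD56B in SIPA1L1 (-0.80), SNORA80A in URB1 (-0.71), SNORA37 in MBD2 (-0.68) and SNORD69 in GNL3 (-0.63). NOL11 and URB1 act in ribosome assembly and GNL3 is the nucleolar GTPase nucleostemin. SNORA80E stood out for its tight Dox-induced arrays, 6.03, 6.06 and 6.02, against 6.95, 6.54 and 7.13 in non-induced CTG(648) arrays. No scaRNA with its own gene was called (0 of 20). SCARNA7 (U90), a scaRNA in KPNA4, had -0.51 with an unadjusted limma p of 0.00621, SCARNA18 in TMEM167A had -0.85 with arrays that nearly met, and SCARNA9, a guide for U2 snRNA in CEP295, had -0.49. U3 was not called in any of its 4 copies, whose log2 fold changes were -0.18 to -0.44, and U13 had -0.19.

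**Figure D3:**
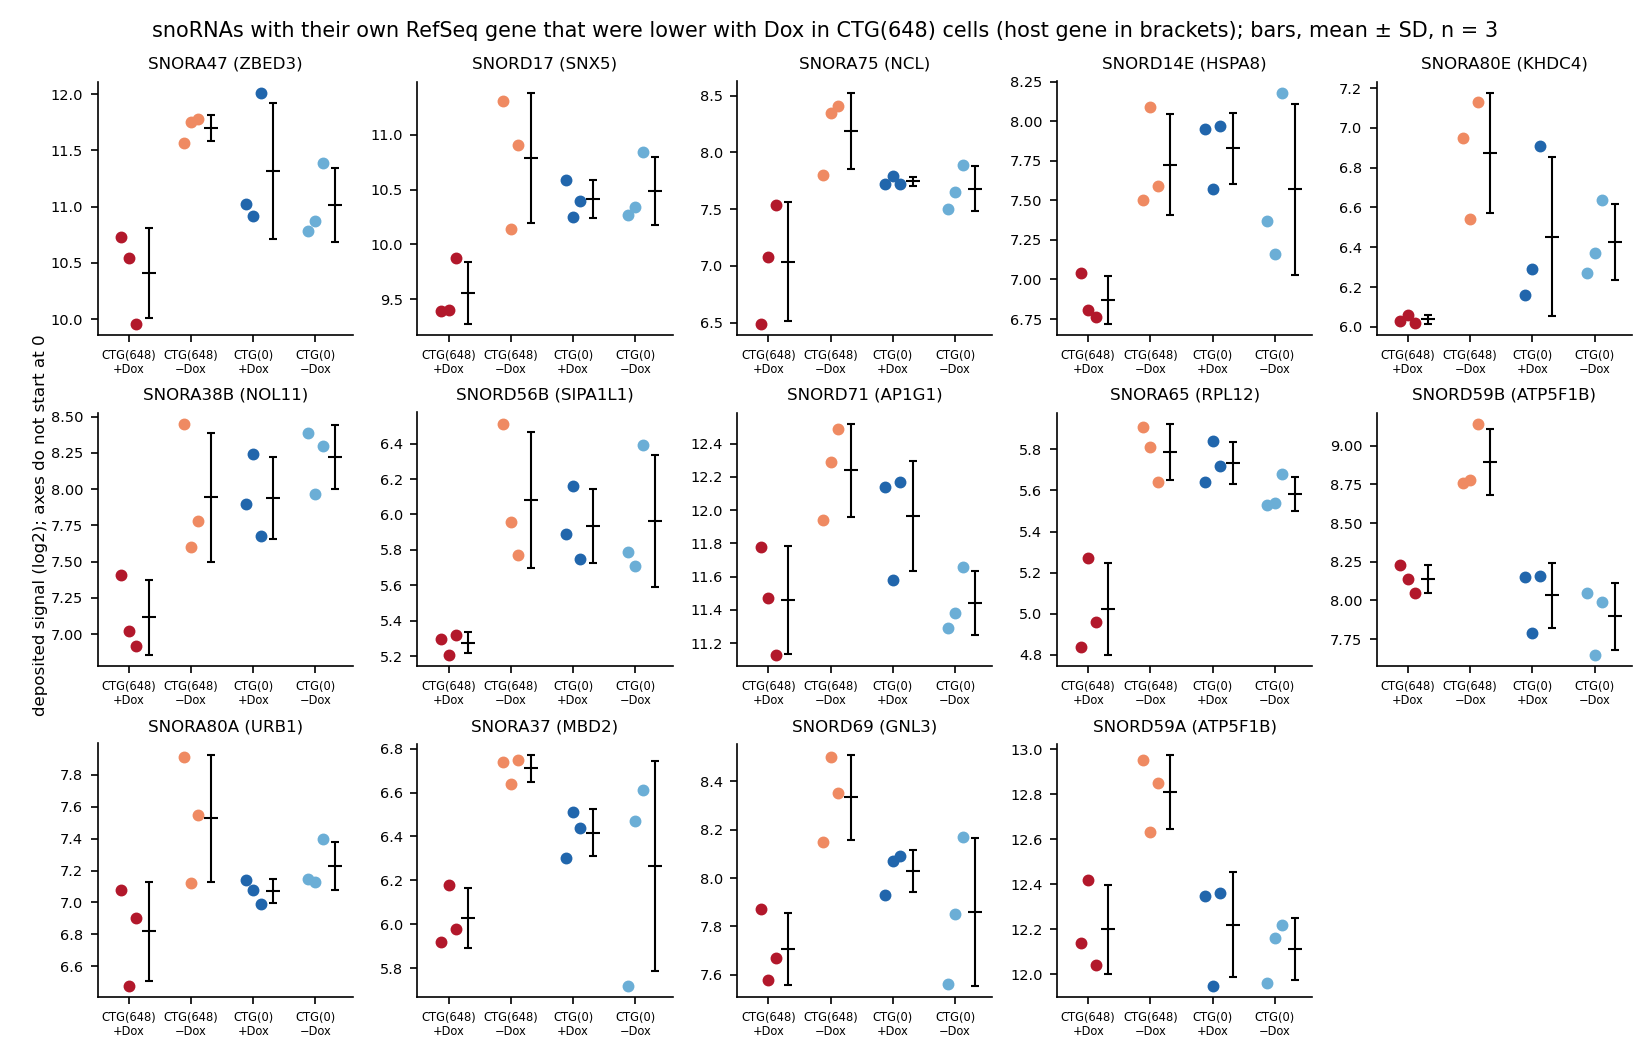
Deposited log2 signal in each of the 12 arrays for the 14 snoRNAs with their own RefSeq gene that were lower with Dox in CTG(648) cells, with the mean and SD of each group of 3 beside its points. In every panel the 3 Dox-induced CTG(648) points lie below the 3 non-induced CTG(648) points, and SNORA80E has Dox-induced values of 6.02 to 6.06.

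The RNA was prepared on columns that retain short RNA poorly. By length of the snoRNA gene the medians followed no single order, while the share called lower fell with length. Medians in Dox-induced over non-induced CTG(648) cells were -0.32 for the 42 probe sets of genes under 100 nucleotides, -0.20 for 62 of at least 100 but under 200 nucleotides and -0.27 for 16 of at least 200 nucleotides. Called lower were 6 of the 42, 7 of the 62 and 1 of the 16. The part of RNA recovery in these values was not tested. With each array centred on the other short RNA, 7 members were lower and 5 higher in place of 19 and 4, and 6 own-gene snoRNAs were lower in place of 14. Without replicate 3 of the Dox-induced CTG(648) cells 6 members were lower and 5 higher, with 6 own-gene snoRNAs lower. The own-gene count was 7 without their replicate 2 and 9 without replicate 3 of the non-induced CTG(648) cells.

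The 4 probe sets that rose with Dox in CTG(648) cells had a symbol and no gene of their own. The largest change was in a probe set named SNORD56 on chromosome 2 (TC0200014640.hg.1), while the RefSeq SNORD56 gene is on chromosome 20. It read 9.43, 8.46 and 8.44 in Dox-induced CTG(648) arrays, against 7.08, 7.06 and 6.98 in non-induced ones. The log2 fold change was 1.74 ± 0.23 (SE, limma, adjusted p = 0.00203), with no overlap and with values of 6.46 to 6.89 in the 6 CTG(0) arrays. A SNORA70 probe set on chromosome 9 (TC0900010136.hg.1) read 6.26, 7.05 and 6.73 with Dox, against 5.58, 5.11 and 4.88 without (log2 fold change 1.49 ± 0.21, SE, limma, adjusted p = 0.00374). A second SNORA70 probe set, on chromosome 21, rose by 0.97 (limma, adjusted p = 0.103), and another, on chromosome 1, fell by 0.69. Over the 29 SNORA70 probe sets the median was -0.19, and 2 were higher and 1 lower. A SCARNA16 probe set on chromosome 1 (TC0100006765.hg.1), whose RefSeq gene is on chromosome 17, read 4.66, 4.88 and 4.63 with Dox, against 3.90, 3.90 and 3.79 without (log2 fold change 0.86 ± 0.14, SE, limma, adjusted p = 0.0124). What lies at these positions was not looked up, and a transcript around the copy could give the same signal. The symbol-only probe sets that fell were SCARNA15 on chromosome 6 (-0.99, at means of 2.71 with Dox and 3.70 without), SNORD36C (-0.84), SNORA70 on chromosome 1, SNORA22 on chromosome 7 (-0.66) and SNORA68 on chromosome 19 (-0.66).

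In CTG(0) cells, the control for Dox itself, snoRNAs moved little. Of the 483 members 5 were higher and 0 lower, beside 1.18% of all probe sets called (0.58% higher and 0.6% lower), and of the 120 own-gene snoRNAs 0 were called in either direction. At an unadjusted p under 0.05, 9 own-gene snoRNAs passed (7.5%, beside 8.39% of all probe sets), 7 of them higher, and at an adjusted p under 0.05 in limma 0 members did, beside 0.0166% of all probe sets. The arrays of 5 own-gene snoRNAs did not overlap with Dox higher and those of 5 with Dox lower, beside 6.51% and 6.42% of all probe sets. The median over own-gene snoRNAs was -0.01, and none of the 23 members called in CTG(648) cells was also called here. The 5 that were higher all had a symbol only and stayed at a mean of 4.53 or less in every group: SNORD27 on chromosome 13 (1.08), SNORA31 on chromosome 5 (0.91), SNORA40 on chromosome 5 (0.88), SNORD75 on chromosome 4 (0.82) and SNORD79 on chromosome 4 (0.73). SNORA31 on chromosome 5 read 3.76, 4.23 and 3.86 in Dox-induced CTG(0) arrays, against 3.06, 2.95 and 3.12 in non-induced ones, without overlap (limma, adjusted p = 0.195). The count was 2 without replicate 1 of the non-induced CTG(0) cells and 8 without their replicate 3.

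The difference between the 2 Dox effects was tested as an interaction. It passed the threshold for 13 members (5 higher, 8 lower), 2.69% of them beside 2.32% of all probe sets (1.1% higher and 1.22% lower). At an adjusted p under 0.05 there was 1 member, beside 0.47% of all probe sets. Of own-gene snoRNAs 6 were lower and 0 higher: SNORA47 (-1.59 ± 0.40, SE), SNORD71 (-1.30 ± 0.31), SNORA75 (-1.21 ± 0.34), SNORD117 (-0.98 ± 0.27), SNORA65 (-0.91 ± 0.21) and SNORD59B (-0.89 ± 0.24). A negative value is a change with Dox that was lower in CTG(648) than in CTG(0) cells. Their limma adjusted p-values were 0.0998 (SNORA65) to 0.182 (SNORA75). The member with an adjusted p under 0.05 was the SCARNA16 probe set on chromosome 1 (TC0100006765.hg.1), at 1.18 ± 0.20 (SE, limma, adjusted p = 0.02). It was 3.57, 3.55 and 3.59 in Dox-induced CTG(0) arrays, against 3.94, 3.66 and 4.07 in non-induced ones. This probe set was dim, with group means of 4.72 or less. This test uses the arrays of both Dox comparisons, so its values are no separate evidence. Leaving out replicate 3 of the non-induced CTG(0) cells gave 20 members, and leaving out replicate 1 of that group or replicate 3 of the Dox-induced CTG(0) cells gave 7, and without replicate 3 of the Dox-induced CTG(648) cells there were 8.

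With Dox in both lines, the members called were mostly lower in CTG(648) than in CTG(0) cells, although the share called was near that of all probe sets. Of the 483 members 45 were lower and 7 higher, beside 11.7% of all probe sets called (5.34% lower and 6.35% higher). By class 21 SNORD, 20 SNORA and 4 SCARNA probe sets were lower. All 27 called own-gene snoRNAs were lower, 15 SNORD, 9 SNORA and 3 SCARNA, and all 27 also had an adjusted p under 0.05, beside 12.3% of all probe sets. Their set of 120 had a median log2 fold change of -0.39, with 83.3% below 0, against 0.01 for all probe sets tested. The median was -0.52 for SNORD, -0.34 for SNORA and -0.005 for SCARNA genes, so the shift was seen in the SNORD and SNORA medians and not in that of the scaRNAs. In 50 of the 120, every CTG(648) array lay below every CTG(0) array (14.6% of all probe sets did) and in 3 above (15.3%). This comparison shares the Dox-induced CTG(648) arrays with the Dox comparison in that line, and the Dox-induced CTG(0) arrays with the other.

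Some of these differences were present without Dox. In non-induced cells 21 members were lower and 6 higher in CTG(648) than in CTG(0) cells, beside 11.7% of all probe sets called (6.11% lower and 5.63% higher), and 15 own-gene snoRNAs were lower and 5 higher. Without replicate 3 of the non-induced CTG(0) cells 11 members were lower and 9 higher, without replicate 1 of the non-induced CTG(648) cells 14 and 5, and without both 13 and 8. In 24 of the 120 every CTG(648) array lay below every CTG(0) array (14.3% of all probe sets did) and in 11 above (13.2%). The median over own-gene snoRNAs was -0.07, which is near the 0.00 of all probe sets. Of the 52 members called with Dox, 16 were also called without it, in the same direction. Removing those, as the design does for effects of the lines themselves, left 36 members (29 lower and 7 higher), and 14 of the 27 own-gene snoRNAs.

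SNORA11 (U107), a box H/ACA RNA in MAGED2 on the X chromosome (chrX:54814370-54814500), had the largest difference between the lines with Dox. It read 6.62, 6.91 and 6.58 in Dox-induced CTG(648) arrays, against 8.61, 9.30 and 9.40 in Dox-induced CTG(0) arrays (log2 fold change -2.40 ± 0.29, SE, limma, adjusted p = 0.000121). Without Dox it read 8.17, 7.20 and 7.13 in CTG(648) arrays, against 8.46, 8.87 and 9.26 in CTG(0) arrays (log2 fold change -1.36 ± 0.29, SE, limma, adjusted p = 0.00703). The line difference was thus present in both states, although replicate 1 of the non-induced CTG(648) cells came close to the CTG(0) range. SCARNA21, a scaRNA in the chromatin remodeller gene CHD3 (chr17:7906123-7906260), read 4.50, 4.13 and 4.43 in Dox-induced CTG(648) arrays, against 6.28, 6.26 and 6.01 in Dox-induced CTG(0) arrays. Its log2 fold change was -1.83 ± 0.19 (SE, limma, adjusted p = 2.72e-05) with Dox and -1.51 ± 0.19 (SE, limma, adjusted p = 0.000119) without. The 6 CTG(648) arrays, at 4.13 to 5.15, were all below the 6 CTG(0) arrays, at 6.01 to 6.36.

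SNORD117 (U83), in the DDX39B region of chromosome 6 (chr6:31536374-31536449), read 8.24, 8.09 and 8.18 in Dox-induced CTG(648) arrays, against 9.99, 9.55 and 9.98 in Dox-induced CTG(0) arrays (log2 fold change -1.67 ± 0.19, SE, limma, adjusted p = 7.21e-05). Without Dox it differed by -0.69. SNORD8, which guides methylation of U6 snRNA and lies in the chromatin remodeller gene CHD8 (chr14:21397293-21397401), read 9.00, 8.60 and 8.60 in CTG(648) arrays, against 9.78, 10.15 and 10.49 in CTG(0) arrays, both with Dox (log2 fold change -1.41 ± 0.22, SE, limma, adjusted p = 0.000682). Without Dox the difference was -0.81. SNORD99 in SNHG12 (-1.36), SNORA26 in DANCR (-1.33), SNORD60 in SNHG19 (-1.23), SNORA71C and SNORA71D in SNHG17 (-1.09 each), SNORD93 in SNHG26 (-1.03) and SNORD104 in SNHG25 (-0.89) were also lower with Dox. Their 6 hosts are noncoding genes.

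The independently transcribed RNAs were lower in CTG(648) cells in both states, but for U13 and SNORD3B-2 the call without Dox was lost when a single array was left out. U3, which directs early cleavage of the ribosomal RNA precursor, is read by 4 probe sets of near-identical genes on chromosome 17, whose shared sequence makes the 4 values uncertain as separate measurements. SNORD3A read 15.05, 15.05 and 15.27 in Dox-induced CTG(648) arrays, against 15.91, 15.80 and 15.88 in Dox-induced CTG(0) arrays, a log2 fold change of -0.74 ± 0.15 (SE, limma, adjusted p = 0.00459). Without Dox it read 15.04, 15.42 and 15.45 in CTG(648) arrays, against 16.03, 16.06 and 16.22 in CTG(0) arrays (log2 fold change -0.80 ± 0.15, SE, limma, adjusted p = 0.0026). The other copies had -1.09 (SNORD3D), -0.93 (SNORD3C) and -0.82 (SNORD3B-2) with Dox and -1.12, -0.82 and -0.66 without. U13 (SNORD13), which helps acetylation of the small-subunit rRNA, read 17.35, 17.27 and 17.10 in CTG(648) arrays, against 18.36, 18.08 and 18.16 in CTG(0) arrays, both with Dox (log2 fold change -0.96 ± 0.19, SE, limma, adjusted p = 0.00493). Without Dox it read 16.94, 17.61 and 17.74 in CTG(648) arrays, against 18.19, 17.99 and 18.23 in CTG(0) arrays (log2 fold change -0.71 ± 0.19, SE, limma, adjusted p = 0.0281). Replicate 1 of the non-induced CTG(648) cells was the lowest of its group for U13 and for all 4 copies of U3. Without it the difference in non-induced cells was -0.46 for U13 and -0.51 for SNORD3B-2 and neither passed, and U13 also did not pass without replicate 1 (-0.68) or replicate 3 (-0.66) of the non-induced CTG(0) cells. SCARNA2, a scaRNA that guides methylation of U2 snRNA (chr1:109100193-109100612), averaged 8.34 ± 0.06 in CTG(648) and 9.05 ± 0.32 in CTG(0) arrays with Dox (SD, n = 3 each), and 8.41 ± 0.10 and 9.36 ± 0.10 without. Its log2 fold changes were -0.71 with Dox and -0.95 without, and the difference with Dox did not pass without replicate 1 of the Dox-induced CTG(0) cells (-0.59). Quantile normalization brings every array to one distribution, so these are differences relative to all other probe sets.

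**Figure D4:**
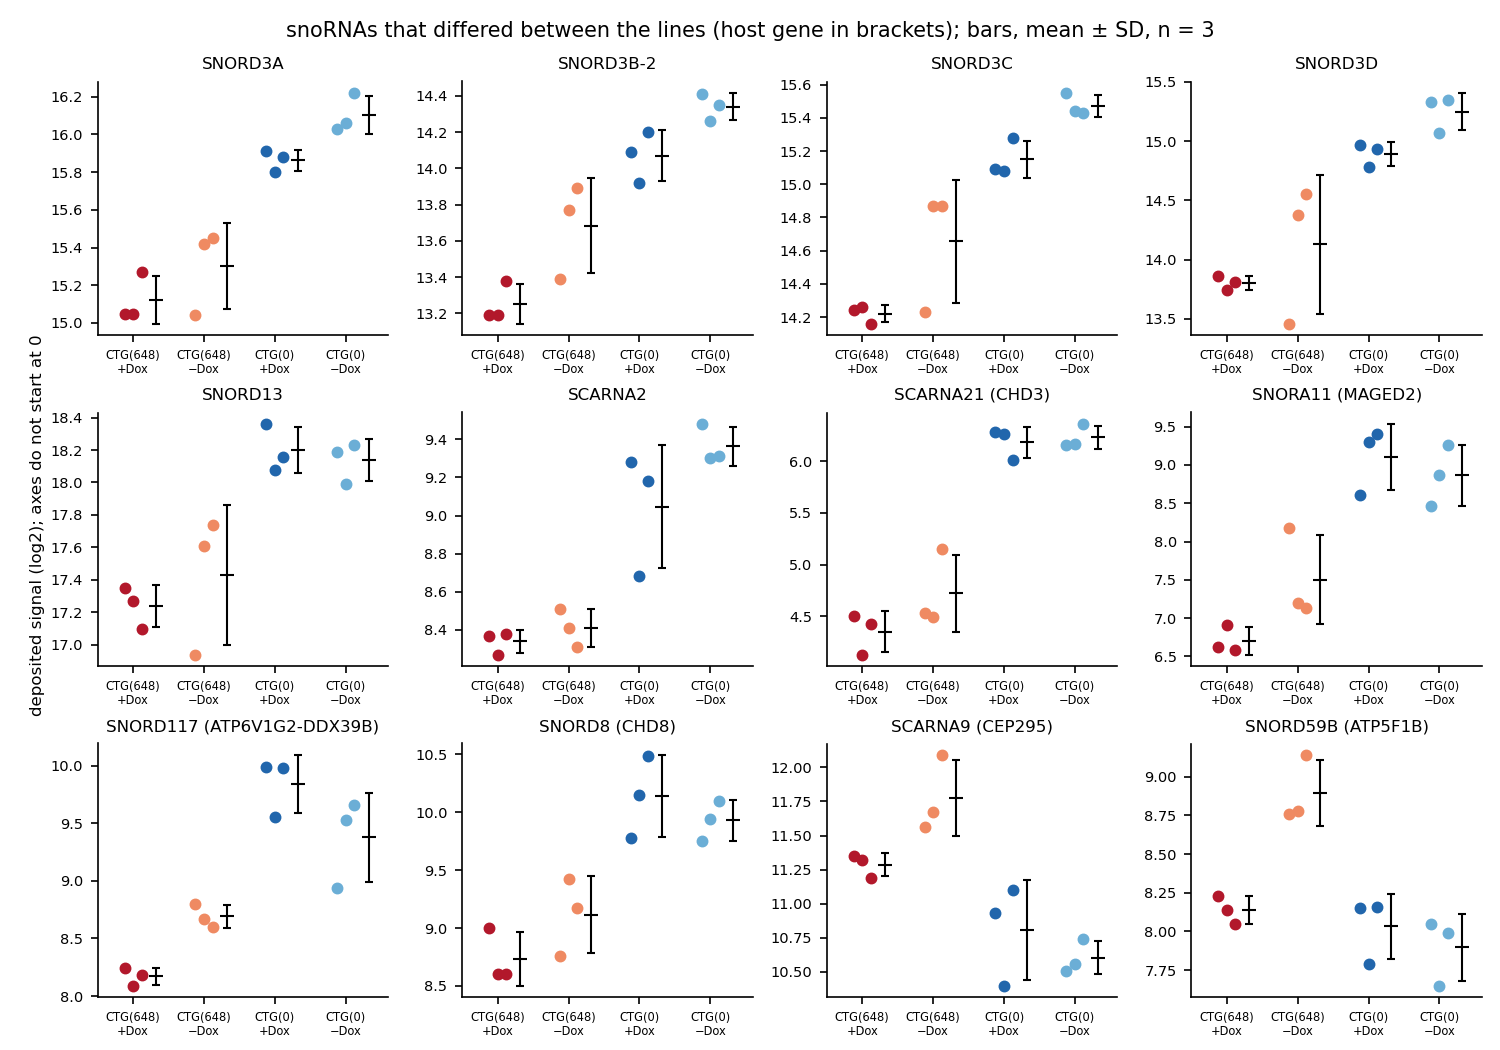
Deposited log2 signal in each of the 12 arrays for 12 snoRNAs and scaRNAs that passed the threshold between CTG(648) and CTG(0) cells in at least 1 state, with the mean and SD of each group of 3. U3, U13, SCARNA2 and SCARNA21 were lower in both CTG(648) groups, while SCARNA9 and SNORD59B were highest in non-induced CTG(648) cells.

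A few snoRNAs were higher in CTG(648) cells. Without Dox, SCARNA9, a guide for U2 snRNA in CEP295, read 11.56, 11.67 and 12.09 in CTG(648) arrays, against 10.51, 10.56 and 10.74 in CTG(0) arrays (log2 fold change 1.17 ± 0.19, SE, limma, adjusted p = 0.00113). With Dox the arrays still did not overlap, but the difference of 0.48 did not pass. SNORD59B (1.00), SNORD71 (0.80), SNORD59A (0.70) and SCARNA22 in NSD2 (0.63) were also higher without Dox. The first 3 of these were lower with Dox in CTG(648) cells, and both comparisons use the same non-induced CTG(648) arrays, with opposite sign. The 7 members higher with Dox were all symbol-only probe sets, led by SNORD56 on chromosome 2 (2.04 ± 0.23, SE), SNORA70 on chromosome 9 (1.34), SCARNA16 on chromosome 1 (1.15) and SNORA31 on chromosome 10 (0.96).

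The host genes were read on the same arrays. Of the 113 own-gene probe sets with a host, 78 had a host with a probe set of its own, and these were 65 genes. With Dox in CTG(648) cells 0 of the 65 hosts were called, beside 2.42% of all probe sets, with a median of 0.09. For the 11 snoRNAs that were called and had a host on the array, the hosts ranged from -0.22 (SIPA1L1) to 0.35 (AP1G1), with a median of -0.01. NCL averaged 15.83 with Dox and 15.85 without, while its SNORA75 fell by 1.15, and ATP5F1B averaged 17.55 with Dox and 17.56 without. With Dox in both lines, 14 of the 65 hosts were higher and 9 lower in CTG(648) cells, beside 6.35% and 5.34% of all probe sets. Of the 10 called snoRNAs with a host on the array, 4 had a host that was also lower. These were SNORA11 with MAGED2 (-1.62), SCARNA21 with CHD3 (-1.74), SNORA72 with RPL30 (-0.79) and SNORA65 with RPL12 (-0.64). The hosts of the other 6 were not called, such as that of SNORD117 (-0.31) and CHD8, host of SNORD8 (-0.46). Whether each snoRNA is in an intron of its host, and on its strand, was not looked up, and the pairs were not tested against each other.

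**Figure D5:**
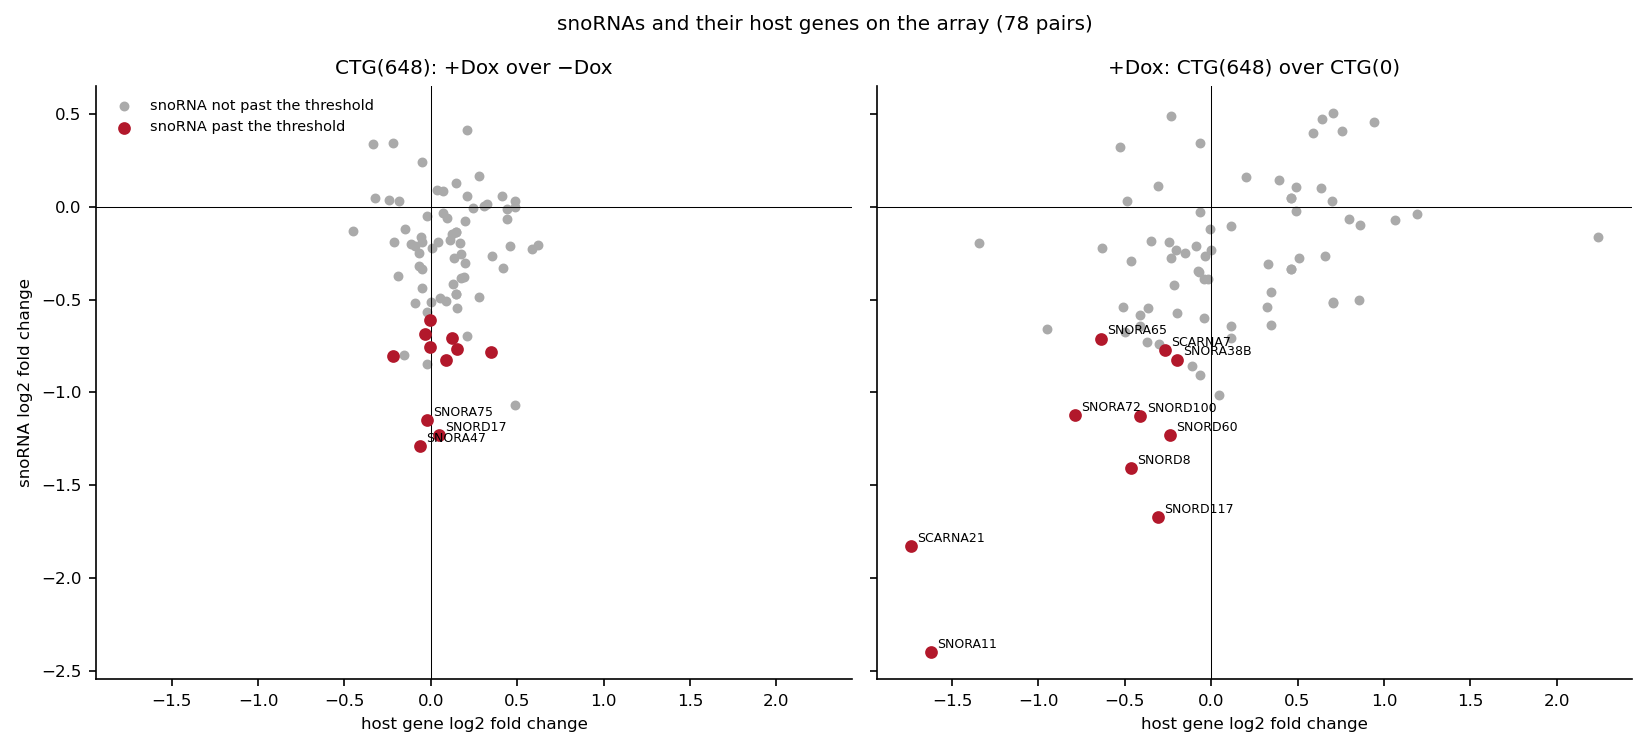
Log2 fold change of each snoRNA against that of its host gene for 78 pairs, with called snoRNAs in red, for Dox-induced over non-induced CTG(648) cells at the left and CTG(648) over CTG(0) cells with Dox at the right. The called snoRNAs at the left lie near 0 on the host axis, at -0.22 to 0.35, and SNORA11 and SCARNA21 at the right have hosts at -1.62 and -1.74.

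The mRNAs of proteins that build and mature these particles were read from a fixed list. Of 37 listed genes of snoRNA particles, their assembly and their processing, 35 had a probe set. With Dox in CTG(648) cells 0 of the 35 were called in either direction, beside 2.42% of all probe sets, and the median was 0.13. At an unadjusted limma p under 0.05, 4 of the 35 passed, all of them higher, beside 10.77% of all probe sets in either direction. NOP58, a core protein of box C/D particles, had 0.49, and NAF1, an assembly factor of box H/ACA particles, had 0.42. Fibrillarin and the rest of the 35 genes measured lay between -0.09 and 0.49. Dyskerin (DKC1) and NOP56 were listed but not among the genes measured. With Dox in both lines 3 were higher and 2 lower in CTG(648) cells, 14.3% of the list beside 11.7% of all probe sets. NOP58 (0.70), PHAX, an export adaptor for capped small RNAs (0.79), and IMP4, a U3 particle protein (1.00), were higher. TGS1, the enzyme that makes the trimethylguanosine cap of U3 (-0.81), and RPAP3, an assembly chaperone (-0.58), were lower. Without Dox 4 were lower, namely TGS1 (-1.04), NOLC1 (-0.79), RPAP3 (-0.75) and NUFIP1 (-0.71), and 0 higher, 11.4% of the list beside 11.7% of all probe sets. In the difference between Dox effects NOP58 alone was called, at 0.79, which is 2.86% of the list beside 2.32% of all probe sets.

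Several families fixed by name could be read only in part. Of 55 listed symbols 37 had a probe set with that symbol alone and 17 one of the RefSeq gene. The snoRNAs of GAS5 (SNORD44 and SNORD74 to SNORD81) and of SNHG1 (SNORD25 to SNORD31), both noncoding hosts, were represented only by probe sets without their own RefSeq gene. SNORD78 had 2 such probe sets, both on chromosome 2. In CTG(648) over CTG(0) cells, 1 of them (TC0200008028.hg.1) had -1.18 with Dox and -1.07 without. The other had -0.03 with Dox and 0.29 without, and did not pass. SNORD74 had 7 probe sets, with a median of -0.02 and a range of -0.65 to 0.57 with Dox, of which none passed, and 1 of them, on chromosome 12, was lower without Dox (-0.98). The SNORA75 family had 8 probe sets with a median of -0.50 for Dox in CTG(648) cells, of which only the RefSeq gene passed. The 12 SNORA48 probe sets, none of the RefSeq gene, ranged from -0.51 to -0.04 in that comparison and none passed.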

How the data were processed

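RNA of 12 samples in 4 groups of 3 was read on Clariom D Human arrays. The authors deposited log2 values, background-corrected and quantile-normalized by RMA on hg38, so levels are relative to each array's whole distribution. The RNA was prepared on RNeasy Mini columns, which retain short RNA poorly. Columns were assigned to samples by title. Of 135750 probe sets, 36176 had 1 symbol, 1119 several and 98455 none; 98 with several symbols that included a member symbol were not used. Genes, positions and hosts came from RefSeq (GRCh38.p14) by gene identifier. A host is a gene whose span holds the snoRNA; the strand and intron were not looked up. The RefSeq chromosome equalled that in the probe set's name for 24987 of 25014 probe sets.

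A fit with 1 mean per group (limma 3.58.1, R 4.3.3) gave 4 comparisons and the difference between Dox effects. The threshold was a log2 fold change over 0.5 with p under 0.005, and Benjamini-Hochberg adjusted values were taken over 36176 probe sets. Tables and plots were made in Python 3.11.15 with pandas 2.3.3 and matplotlib 3.10.9, and the fit was tested on simulated data. The number of arrays limits the precision. Of the members, 10 probe sets in 5 groups had values identical to another's. Named were, per comparison and class, the 5 highest and 5 lowest called members with non-overlapping arrays, and a list of 55 symbols; other members named were chosen after their values were seen. Members and lists were chosen with earlier results of these data known. Alternatives were a log2 fold change over 1, adjusted p-values, other normalizations and probe filters, fits on all probe sets or 2 groups alone, the methods' t-test, a replicate block and leaving out each array.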

Additional observations from a re-analysis of the deposited data

Results flagged for a closer look

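The change with Dox differed between the CTG(648) and CTG(0) lines for 13 members, by the limma test of the difference itself, which is 2.69% of members beside 2.32% of all probe sets, and 6 of the 13 passed in every fit that left out 1 array. Values are the log2 change in CTG(648) cells minus that in CTG(0) cells. Among snoRNAs with their own RefSeq gene it was -1.59 for SNORA47, -1.30 for SNORD71, -1.21 for SNORA75, -0.98 for SNORD117, -0.91 for SNORA65 and -0.89 for SNORD59B. SNORD117 passed neither Dox comparison on its own: it changed by -0.52 in CTG(648) and 0.46 in CTG(0) cells. Among symbol-only probe sets it was -1.03 for SNORA31 on chromosome 5 and -0.89 for SNORA25 on chromosome 8, both with group means under 5. It was 1.54 for SNORD56 on chromosome 2, 1.18 and 0.88 for the SCARNA16 probe sets on chromosome 1, and 1.14 and 1.03 for the SNORA70 probe sets on chromosomes 21 and 9. Of the 13, the SCARNA16 value of 1.18 had an adjusted p under 0.05 (limma, adjusted p = 0.02). That probe set too had group means under 5, at 4.72 or less. The test for a single outlying sample needs larger groups than 3 and was not run.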

How the results depend on the processing

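The alternatives were followed for 72 values, those of the 5 highest and 5 lowest called members per comparison and class. They were also followed for the own-gene medians of Dox in CTG(648) cells and of the lines with Dox. None of these changed sign under any alternative. Other members named and the other own-gene medians were not checked. The balance of calls did change. Dox in CTG(0) cells gave 0 higher and 1 lower among members averaging 5 or more (5 and 0 over all). Dox in CTG(648) cells gave 3 higher and 1 lower at an adjusted p under 0.05 (4 and 19 by the main threshold). Members called numbered 23 (Dox, CTG(648)), 5 (Dox, CTG(0)), 52 (CTG(648) against CTG(0) with Dox), 27 (without Dox) and 13 (difference in Dox effect), and own-gene snoRNAs lower 14 (Dox, CTG(648)) and 27 (lines with Dox). With adjusted p under 0.05 there were 4 (Dox, CTG(648)), 0 (Dox, CTG(0)), 1 (difference) and 1 own-gene lower. With a log2 fold change over 1 there were 5, 1, 22, 7 and 8, and 3 and 13 own-gene lower. Fitting all probe sets gave 14 (Dox, CTG(648)), 7 (difference) and 9 own-gene lower. The methods' t-test at p under 0.05 gave 39 (Dox, CTG(648)) and 9 (Dox, CTG(0)), and after Benjamini-Hochberg 0, 0, 16 and 3 in the 4 comparisons and 0 and 12 own-gene lower. Centring on other short RNA, chosen after seeing the data, gave 12 (Dox, CTG(648)) and 6 own-gene lower. Keeping those that averaged 5 or more in a group, or the brightest per symbol, gave 1 and 2 for Dox in CTG(0), and the first filter moved the own-gene median of the lines with Dox, -0.39, to -0.50. Leaving out both non-induced arrays that stand apart, also chosen after seeing the data, gave 25 for the difference. Leaving out each array gave 11 to 25, 2 to 8, 38 to 56, 19 to 28 and 7 to 20 members, 6 to 15 and 22 to 29 own-gene lower, and own-gene medians of -0.30 to -0.24 and -0.42 to -0.38. In all 12 such fits 8 of 23, 1 of 5, 28 of 52, 9 of 27 and 6 of 13 members stayed called. Arrays with the same replicate number did not deviate together (correlations -0.08 to 0.07); the replicate block gave 19, 6, 51, 23 and 12 members and 10 and 28 own-gene lower. Dim probe sets, most of those with a symbol only, limit what can be seen.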
